A study of Mus musculus with 8 samples.

Results

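The receptors that share the common cytokine receptor gamma chain were followed in mouse splenic regulatory T cells (Tregs) and conventional CD4+ T cells (Tconvs), in the presence or absence of a *Cd70* transgene. The genes were taken by name from the deposited table and were *Il2ra*, *Il2rb*, *Il2rg*, *Il7r*, *Il4ra*, *Il15ra*, *Il21r* and *Il9r*. All 8 were listed among its 52636 rows, and all 8 were among the 12816 genes that were tested. The control mice were CD27+/- animals, called WT in the sample labels, and the CD70Tg mice were CD11c-Cd70tg;CD27+/- animals, which express CD70 (it binds CD27) from the CD11c promoter, mainly in dendritic cells. Both genotypes thus carried CD27+/- and were crossed to a Foxp3 reporter that gives GFP in Foxp3-expressing cells, and spleens were taken at 6 to 8 weeks of age. CD70Tg mice of this strain become ill soon after that age. Before the sort, CD8+ cells, NK cells, B cells, dendritic cells, macrophages, granulocytes and Ter119+ (erythroid) cells were depleted on a magnetic column. In each genotype, 200000 CD4+ cells per sample were sorted as GFP+ (Tregs) or GFP- (Tconvs), which gave 4 groups of 2 libraries. Nothing in the sources states that the libraries of a group came from separate mice, so that p-values measure only the spread between these libraries.

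The gamma chain, encoded by *Il2rg*, has no cytokine specificity of its own. It pairs with IL-2Rβ (*Il2rb*) to bind IL-2 or IL-15, with IL-7Rα (*Il7r*), IL-4Rα (*Il4ra*), IL-9R (*Il9r*) or IL-21R (*Il21r*) to bind the cytokine of the same name, and IL-2Rα (CD25, *Il2ra*) or IL-15Rα (*Il15ra*) adds high affinity to the first pair. The gamma chain recruits the kinase JAK3 and its partner chain JAK1, and the signal passes to STAT proteins, mainly STAT5 for IL-2, IL-7, IL-9 and IL-15, STAT6 for IL-4 and STAT3 for IL-21. Tregs need IL-2 for their maintenance and are known for high CD25 and low IL-7Rα, whereas naive T cells depend on IL-7.

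The genes form a pair of neighbourhoods in the mouse genome (mm10, GENCODE M21). *Il2ra* (chromosome 2, 11642807 to 11693193, plus strand) and *Il15ra* (chromosome 2, 11705290 to 11734317, plus strand) lie 12.1 kb apart, with 0 annotated genes between them. *Il4ra* (chromosome 7, 125552120 to 125579474, plus strand) and *Il21r* (chromosome 7, 125603429 to 125633570, plus strand) are adjacent too, with 0 genes between them. *Il2rb* (chromosome 15, 78479256 to 78495271) and *Il7r* (chromosome 15, 9505788 to 9530176) are on the minus strand of 1 chromosome, with 961 genes between them. *Il2rg* (chromosome X, 101264378 to 101268255) and *Il9r* (chromosome 11, 32187541 to 32200279) are also on the minus strand. *Il2rg* shares 30.5% of its exon length with *Gm20489* on the same strand, and *Il4ra* shares 9.5% with *Gm44876* on the opposite strand. How reads in these stretches were assigned is not given in the sources used here, and the values of both members are uncertain to that extent.

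RefSeq promoter sequences (GRCm38.p6, the 250 bases before a transcript start) were matched for 7 of the 8 genes, all except *Il2rb*, and gave 8 windows. The windows of the 2 adjacent genes *Il2ra* and *Il15ra* are shown because they hold the matches named next, and that of *Il2rg*, the shared chain, for comparison. Each is written 5′ to 3′ on the strand of its gene, and capitals mark the matched letters.
Il2ra promoter, chr2:11642542-11642791: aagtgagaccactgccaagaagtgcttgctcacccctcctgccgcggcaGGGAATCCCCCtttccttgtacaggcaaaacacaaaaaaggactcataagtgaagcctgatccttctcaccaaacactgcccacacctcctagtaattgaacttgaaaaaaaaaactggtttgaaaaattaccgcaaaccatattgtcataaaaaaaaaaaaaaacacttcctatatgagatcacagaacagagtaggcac
Il15ra promoter, first window, chr2:11705043-11705292: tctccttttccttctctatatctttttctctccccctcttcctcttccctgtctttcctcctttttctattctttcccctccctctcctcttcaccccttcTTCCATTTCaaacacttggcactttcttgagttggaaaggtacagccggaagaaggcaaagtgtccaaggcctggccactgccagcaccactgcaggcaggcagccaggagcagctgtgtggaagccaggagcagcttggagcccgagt
Il2rg promoter, chrX:101268256-101268505, minus strand: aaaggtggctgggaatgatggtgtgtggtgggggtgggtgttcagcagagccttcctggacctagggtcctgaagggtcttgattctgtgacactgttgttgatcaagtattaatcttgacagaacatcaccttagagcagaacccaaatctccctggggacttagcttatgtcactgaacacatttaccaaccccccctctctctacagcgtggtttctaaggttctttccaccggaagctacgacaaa
Both strands were searched for 4 motifs, namely the STAT dimer element TTCNNNGAA, the T-box core GGTGTGA, the interferon-stimulated response element core GAAANNGAA and the kappaB consensus. A pair of overlapping kappaB matches lies 201 to 191 bases before the start of *Il2ra*, and an interferon-stimulated response element core lies 149 to 141 bases before the start of *Il15ra*, on the opposite strand. The *Il7r* window, not printed because it lies inside the annotated gene, holds a STAT dimer element 142 to 134 bases before the start. The other 5 windows, that of *Il2rg* included, hold none of the 4 motifs. Among all 32851 RefSeq promoters, 7.02% hold the STAT dimer element, 3.33% the T-box core, 7.13% the interferon-stimulated core and 7.25% the kappaB consensus. These matches are descriptions of letters, not of bound sites.

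Values are reads per gene scaled to 20 M reads per library, so that 20 equals 1 read per M. Within a library, low values occur only in multiples of the worth of 1 read, and from this unit there were 19.56 and 9.55 M reads behind the control Tconv libraries, 6.94 and 33.34 M behind the CD70Tg Tconv libraries, 4.13 and 4.56 M behind the control Treg libraries, and 1.92 and 3.71 M behind the CD70Tg Treg libraries. The value worth 3 reads, used as a floor, ranged from 1.8 to 31.4, and every receptor gene was above it in all 8 libraries. The Treg libraries were thus shallower, and *Il15ra* rested on 44 to 72 reads there. *Foxp3* in the Tconv libraries was at 5.21% to 7.51% of its mean in control Tregs. *Cd27* was between 2980 and 6123 in all 8 libraries. In bulk libraries, fewer cells of a type and less RNA per cell cannot be told apart.

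The first question was how the CD70 transgene altered these receptors in each subset. In Tconvs, *Il2rb* and *Il15ra* rose and *Il4ra* fell, and the other 5 genes did not pass the test. In Tregs, *Il2rg* alone of the 8 passed, with a rise. Passing means an adjusted p-value under 0.05 in limma (Benjamini and Hochberg's method over all 12816 tested genes). In Tconvs, 2 of 8 receptor genes rose and 1 fell, against 6.82% of all tested genes that rose and 1.99% that fell. In Tregs, 1 of 8 rose, against 3.94% of all tested genes, and 3.46% of all tested genes fell. The median log2 fold change over the receptor genes was 0.03 in Tconvs and 0.12 in Tregs, beside 0.01 and -0.05 over all tested genes. The count in Tregs depended on the settings, from 0 (limma-voom run on read numbers) to 4 (Treg libraries fitted alone), in which case *Il2ra*, *Il2rg*, *Il7r* and *Il15ra* passed.

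**Figure D1:**
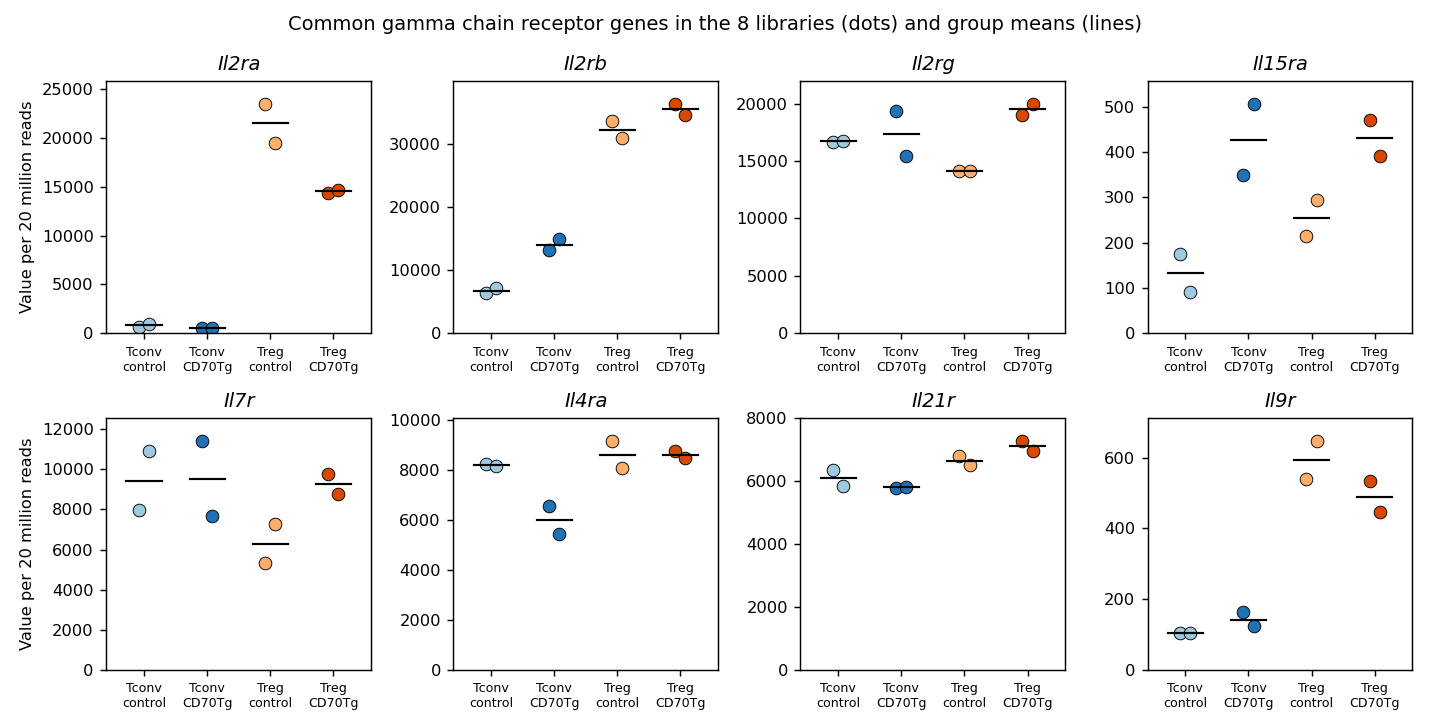
Deposited values (reads per 20 M, vertical axes from 0) of the 8 receptor genes in the 8 libraries, with a dot for each library and a line for the mean of each group of 2. *Il2rb* lies between 6410 and 7075 in control Tconvs and between 13098 and 14868 in CD70Tg Tconvs, and at 30872 or more in every Treg library.

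**Figure D2:**
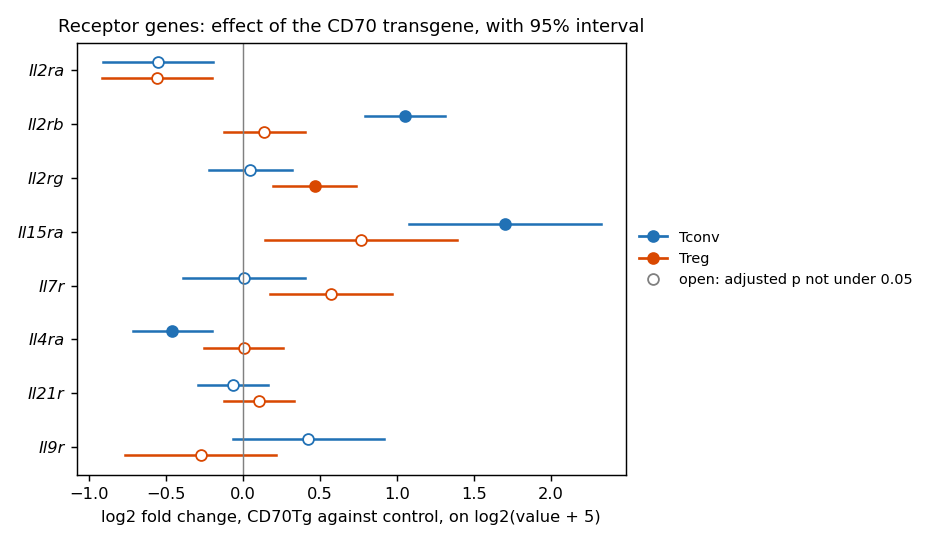
Log2 fold change of CD70Tg against control libraries on the log2(value + 5) scale (horizontal axis) for each receptor gene, in Tconvs (blue) and Tregs (orange), with 95% intervals from limma and 2 libraries per group. Filled dots have an adjusted p-value under 0.05, which holds for *Il2rb*, *Il15ra* and *Il4ra* in Tconvs and for *Il2rg* in Tregs.

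*Il2rb*, the signalling chain shared by the IL-2 and IL-15 receptors, had values of 6410 and 7075 in control Tconvs and 13098 and 14868 in CD70Tg Tconvs. The groups did not overlap, and the increase was 2.07-fold on the scale tested (log2 fold change 1.05, standard error 0.12, limma adjusted p = 2.35e-05). It passed under all 15 alternative settings. In Tregs the values were 33637 and 30872 in controls and 36340 and 34608 in CD70Tg mice. That change was 0.14 with a 95% interval of -0.12 to 0.40 and an adjusted p-value of 0.571. The difference between the responses of the subsets was tested in the same model and was -0.91 (standard error 0.18, limma adjusted p = 0.0157), so that the response was smaller in Tregs. *Il2rb* was the only one of the 8 genes for which this difference passed, against 1.02% of all tested genes. The difference had an adjusted p-value of 0.117 with scaling by the trimmed mean of M values, 0.109 with median-of-ratios factors and 0.225 with no minimum value. It was 0.0962, 0.0737 and 0.0854 when the first control, the first CD70Tg or the second CD70Tg Treg library was left out.

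NK cells and CD8+ T cells also express *Il2rb*. Both had been depleted before the sort, and their markers were read beside *Il2rb*. The 4 NK cell markers summed to 417 and 444 in control Tconvs and to 81 and 88 in CD70Tg Tconvs, where *Il2rb* was higher. Nearly all of this sum was *Klrb1c*, with 403 and 423 in controls and 75 and 68 in CD70Tg mice. *Klre1* did not exceed 21 in any library, and *Ncr1* and *Klra8* did not exceed 2. The 2 CD8 genes summed to 720 and 681 in control Tconvs and 1563 and 1590 in CD70Tg Tconvs, and to 317 and 417 in control Tregs and 660 and 631 in CD70Tg Tregs. *Cd8a* had values of 17 and 28 in control Tconvs and of 508 and 608 in CD70Tg Tconvs (log2 fold change 4.38, limma adjusted p = 9.81e-07). *Cd8b1*, most of the control sum, changed less, from 703 and 653 to 1055 and 982 in Tconvs (0.58, limma adjusted p = 0.0377). The part of NK cells and CD8+ T cells in the *Il2rb* difference was not tested.

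*Il15ra*, which binds IL-15 with high affinity and presents it to neighbouring cells, was the member with the largest fold change in Tconvs. Its values were 176 and 90 in control Tconvs and 349 and 507 in CD70Tg Tconvs, without overlap. The log2 fold change was 1.70 (standard error 0.29, limma adjusted p = 0.00104), a 3.25-fold increase, and it passed in 14 of 15 alternative settings. The second control library rested on 43 reads, and without it the change was 1.23. In Tregs the values were 214 and 294 in controls and 471 and 392 in CD70Tg mice, also without overlap, and the change of 0.76 had a 95% interval of 0.14 to 1.39 and an adjusted p-value of 0.134. The difference of -0.93 between the subsets did not pass (adjusted p = 0.428). The levels of CD70Tg Tconvs and CD70Tg Tregs overlapped.

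The 5 dendritic cell markers, cells that also express *Il15ra*, summed to 63 and 133 in control Tconvs and 180 and 307 in CD70Tg Tconvs, and to 74 and 129 in control Tregs and 201 and 187 in CD70Tg Tregs. *Itgax*, which encodes CD11c and can also be carried by activated T cells, had values of 31 and 57 in control Tconvs and of 101 and 236 in CD70Tg Tconvs (log2 fold change 1.76, limma adjusted p = 0.0152). *Xcr1*, a marker of cross-presenting dendritic cells, had 7 and 26 in control Tconvs and 49 and 56 in CD70Tg Tconvs. In Tregs it had 10 and 18 in controls (2 and 4 reads) and 63 and 33 in CD70Tg mice (6 and 6 reads). *Flt3* had 13 and 17 in control Tconvs and 12 and 7 in CD70Tg Tconvs, and *Siglech*, a marker of plasmacytoid dendritic cells, had 6 and 28 in controls and 0 and 3 in CD70Tg mice. *Clec9a* had 6 and 5 in control Tconvs and 18 and 5 in CD70Tg Tconvs. The 5 myeloid markers summed to 1365 and 1350 in control Tconvs and 1042 and 1376 in CD70Tg Tconvs, but did not move together. *Cd68*, a lysosomal protein of macrophages, rose there from 79 and 51 to 245 and 306 (log2 fold change 2.02, limma adjusted p = 0.000108), whereas *Lyz2*, lysozyme, was at 788 and 835 in controls and 436 and 643 in CD70Tg mice (adjusted p = 0.0572). Dendritic cells and macrophages were among the cells depleted before the sort, and the part of any that remained in the *Il15ra* values was not tested.

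*Il2rg*, the shared gamma chain, was among the most uniform of the 8 genes. Its values were 14150 and 14103 in control Tregs and 19027 and 19971 in CD70Tg Tregs, without overlap (log2 fold change 0.46, standard error 0.13, limma adjusted p = 0.0356), a 1.38-fold increase. The direction was the same in all 15 alternative settings, but the test was passed in only 7 of them and the adjusted p-value reached 0.225. It was not passed with any 1 of the 4 Treg libraries left out, nor with either other scaling. In Tconvs the values were 16657 and 16757 in controls and 19336 and 15411 in CD70Tg mice. The CD70Tg Tconv libraries lay on both sides of the controls, and the change was 0.05 with a 95% interval of -0.22 to 0.32 (adjusted p = 0.909). The responses of the subsets differed by 0.42, which did not pass (adjusted p = 0.407).

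*Il2ra*, which encodes CD25, passed the test in neither subset. Its values in Tregs were 23490 and 19497 in controls and 14398 and 14659 in CD70Tg mice (log2 fold change -0.56, standard error 0.17, adjusted p = 0.0559). In Tconvs they were 599 and 965 in controls and 548 and 488 in CD70Tg mice (-0.55, standard error 0.17, adjusted p = 0.0529). The libraries did not overlap between genotypes in either subset. Among the 15 alternatives, adjusted p-values lay between 0.000808 and 0.408 in Tregs, where 6 passed, and between 0.000429 and 0.604 in Tconvs, where 2 passed. The difference between the subsets was -0.01 with a 95% interval of -0.51 to 0.50. The change in Tconvs depended on the control libraries, with -0.89 without the first and -0.21 without the second, and the difference between the subsets was then 0.33 and -0.35. The Tconvs, but not the Tregs, had been depleted with an antibody against CD25 before the sort. This step and the cell subset cannot be told apart in the *Il2ra* difference between Tconvs and Tregs. The *Il2ra* change within Tconvs, and its comparison with that in Tregs, likewise hold only for Tconvs left after this depletion.

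*Il7r*, which encodes the IL-7-binding chain, had values of 5309 and 7286 in control Tregs and 9749 and 8765 in CD70Tg Tregs. The groups did not overlap, and the change of 0.57 (standard error 0.19) did not pass (adjusted p = 0.0759). Among the 15 alternatives this p-value lay between 0.00413 and 0.541, and 6 of them passed. The change was 0.34 without the first control Treg library and 0.80 without the second. In Tconvs the values were 7964 and 10915 in controls and 11436 and 7653 in CD70Tg mice, with CD70Tg libraries above and below both controls. The change there was 0.00 with a 95% interval of -0.39 to 0.40. The 3 naive T cell markers, a state in which *Il7r* is high, summed to 32953 and 27625 in control Tregs and 25632 and 27394 in CD70Tg Tregs, and their part in the *Il7r* values was not tested.

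*Il4ra*, the chain that binds IL-4 and, with *Il13ra1*, forms an IL-13 receptor, fell in Tconvs. Its values were 8243 and 8168 in control Tconvs and 6572 and 5418 in CD70Tg Tconvs, without overlap (log2 fold change -0.46, standard error 0.12, limma adjusted p = 0.023). The fall passed in 10 of 15 alternative settings, and the adjusted p-value reached 0.193 without the second CD70Tg library, where the change was -0.32. In Tregs the values were 9176 and 8061 in controls and 8756 and 8477 in CD70Tg mice. These overlapped, and the change was 0.00 with a 95% interval of -0.25 to 0.26. The responses of the subsets differed by 0.46, which did not pass (adjusted p = 0.303). The 3 naive T cell markers summed to 57750 and 55953 in control Tconvs and 51403 and 38322 in CD70Tg Tconvs. Their part in the fall of *Il4ra* was not tested.

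*Il21r*, the IL-21-binding chain, varied least of the 8, from 5797 to 7293 over the 8 libraries. It changed by 0.10 in Tregs (95% interval -0.13 to 0.33) and by -0.07 in Tconvs (95% interval -0.30 to 0.16), neither of which passed. *Il9r*, the IL-9-binding chain, had values of 539 and 648 in control Tregs and 533 and 446 in CD70Tg Tregs, and of 105 and 103 in control Tconvs and 162 and 123 in CD70Tg Tconvs. Its changes of -0.28 in Tregs and 0.42 in Tconvs had adjusted p-values of 0.544 and 0.359.

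The second question was how the subsets themselves differed. In control mice, *Il2ra*, *Il2rb*, *Il9r* and *Il15ra* were higher in Tregs and *Il7r* was lower, so that 4 of 8 genes were higher and 1 lower, against 27.5% and 18.4% of all tested genes. *Il2rb* was 4.78-fold higher (log2 difference 2.26, standard error 0.12, limma adjusted p = 7.87e-10) and *Il9r* 5.47-fold higher (2.45, standard error 0.23, limma adjusted p = 4.22e-07). Both passed under all 15 alternative settings. *Il2ra* was 27.97-fold higher, where the subset and the CD25 depletion of Tconvs cannot be told apart. *Il15ra* was 0.96 higher (limma adjusted p = 0.0136) and *Il7r* 0.58 lower, a log2 difference of -0.58 (limma adjusted p = 0.0178). *Il15ra* passed in 11 of 15 alternative settings and *Il7r* in 12, and both were lost with no minimum value (adjusted p = 0.0923 and 0.147). *Il15ra* was also lost with limma-voom (adjusted p = 0.0572) and without the second control Treg library (0.74, adjusted p = 0.134). Without the second control Tconv library the difference was 0.50 for *Il15ra* (adjusted p = 0.218) and -0.36 for *Il7r* (adjusted p = 0.181), and without the first control Treg library it was -0.36 for *Il7r* (adjusted p = 0.212). *Il2rg*, *Il4ra* and *Il21r* differed by -0.24, 0.07 and 0.13 between the subsets, and these differences did not pass.

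In CD70Tg mice, 5 of 8 genes were higher in Tregs, against 22.6% of all tested genes, and 20.1% of all tested genes were lower. *Il2rb* was still higher, by 1.35 (standard error 0.12, limma adjusted p = 4.23e-07), and so were *Il9r* by 1.75 (limma adjusted p = 2.12e-05) and *Il2ra* by 4.80. *Il4ra* was 0.53 higher (limma adjusted p = 0.00239, passing in all 15 settings) and *Il21r* 0.30 higher (limma adjusted p = 0.0363, passing in 7 of 15). B cells express both, and the 4 B cell markers summed to 441 and 420 in CD70Tg Tregs and 61 and 81 in CD70Tg Tconvs. In control mice they summed to 244 and 357 in Tregs and 128 and 132 in Tconvs. B cells were among the cells depleted before the sort, and their part in these differences was not tested. *Il7r* differed by -0.02 (95% interval -0.41 to 0.38) and *Il15ra* by 0.03 (95% interval -0.59 to 0.65). In order of level, *Il2rb* ran from CD70Tg Tregs through control Tregs and CD70Tg Tconvs down to control Tconvs, and no neighbouring groups overlapped, although the step between the 2 Treg groups did not pass the test. *Il2rg* was lowest in control Tregs, and its other 3 groups overlapped with their neighbours in the order. *Il2ra* ran from control Tregs through CD70Tg Tregs and control Tconvs to CD70Tg Tconvs, and *Il9r* from control Tregs through CD70Tg Tregs and CD70Tg Tconvs to control Tconvs. Neither gene had overlapping neighbours, but within a subset the genotypes did not differ by the test. *Il15ra* was highest in the CD70Tg groups, which overlapped, then in control Tregs and lowest in control Tconvs. *Il7r* overlapped between all groups but control Tregs, the lowest. By mean, *Il4ra* ran from the Treg groups, which overlapped, through control Tconvs to CD70Tg Tconvs. Control Tconvs, at 8168 and 8243, lay within the *Il4ra* range of control Tregs, 8061 to 9176. *Il21r* ran from CD70Tg Tregs through control Tregs and control Tconvs to CD70Tg Tconvs without overlap between neighbours. None of these *Il21r* steps between neighbours passed the test.

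Levels can be compared between genes only per length, and values were divided by the exon length in kb. On this scale *Il2rg* was the most abundant of the 8 in Tconvs, at 6978.2 and 7020.1 per kb in controls, and *Il2rb* in control Tregs, at 7846.3 and 7201.3 per kb. *Il15ra* and *Il9r* did not exceed 131.0 per kb in any library, and in CD70Tg Tconvs *Il2ra*, at 96.0 and 85.4 per kb, was in the same range. The ratio of *Il2rb* to *Il2rg* per kb was 0.214 and 0.235 in control Tconvs and 0.377 and 0.537 in CD70Tg Tconvs. In Tregs it was 1.32 and 1.22 in controls and 1.06 and 0.965 in CD70Tg mice. The ratio was thus higher in CD70Tg than in control Tconvs and lower in CD70Tg than in control Tregs, without overlap in either subset. The ratio of *Il2ra* to *Il2rb* was 0.524 and 0.474 in control Tregs and 0.297 and 0.318 in CD70Tg Tregs. No test was made on these ratios, and the *Il2rg* value carries the overlap with *Gm20489*.

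**Figure D3:**
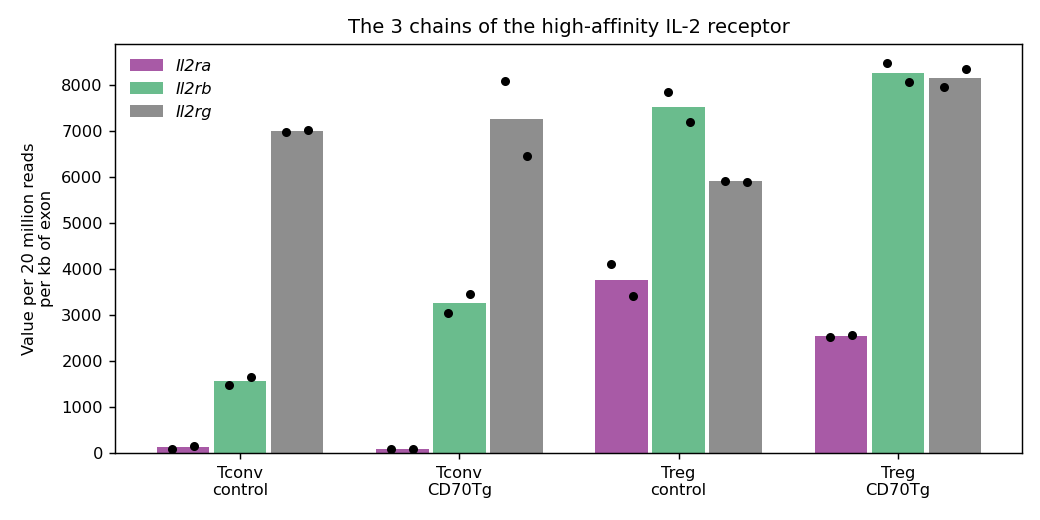
Level of the 3 chains of the high-affinity IL-2 receptor in each group (vertical axis, reads per 20 M per kb of exon, from 0), with bars for the mean of 2 libraries and dots for each library. *Il2rb* stands below *Il2rg* in Tconvs of both genotypes and above it in control Tregs, and *Il2ra* is at 4113.1 and 3413.9 per kb in control Tregs and 2521.1 and 2566.8 per kb in CD70Tg Tregs.

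The remaining pathway was read from a list of 26 genes (ligands, partner chains, kinases, STATs, feedback inhibitors and targets), of which 20 could be tested. In Tconvs, 9 of the 20 rose and 1 fell, beside 6.82% and 1.99% of all tested genes, and the median log2 fold change was 0.40, beside 0.01 over all tested genes. In Tregs, 3 rose and 2 fell, beside 3.94% and 3.46%, and the median was 0.18, beside -0.05. Of the ligands only *Il21* was tested, with 493 and 74 in control and 283 and 686 in CD70Tg Tconvs and no more than 17 in Tregs. *Il2* did not exceed 38 in any library, *Il15* did not exceed 32, and *Il9* was at 0 in all 8, which allows up to the floor of each library.

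Among the signal carriers, *Jak3*, the kinase bound to the gamma chain, rose in Tconvs (0.75, limma adjusted p = 0.0101), and its change in Tregs was 0.43 (adjusted p = 0.161). *Stat3* rose in Tconvs by 0.47 (limma adjusted p = 0.0177). *Stat5a*, *Stat5b* and *Stat6* passed in neither subset, with changes between -0.07 and 0.12.

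The feedback inhibitors *Cish*, *Socs1*, *Socs2* and *Socs3*, which are induced by cytokine signals and dampen them, rose in Tconvs, 4 of the 5 on the list, beside 6.82% of all tested genes. *Cish* went from 850 and 691 to 1162 and 1559 in Tconvs (0.81, limma adjusted p = 0.00165), and *Socs3* rose by 1.12 (limma adjusted p = 0.00289). In Tregs their changes were 0.12 for *Cish*, 0.26 for *Socs1*, 0.65 for *Socs2* and 0.15 for *Socs3*, and none of the 4 passed. The differences between the subsets did not pass for any of these 4, with adjusted p-values of 0.163, 0.517, 0.95 and 0.2. In control mice, *Cish* and *Socs2* were already 6.78-fold and 11.5-fold higher in Tregs than in Tconvs.

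Of the targets, *Pim1*, a survival kinase, rose in both subsets, by 0.92 in Tconvs and 0.66 in Tregs. *Myc* fell in both, by 0.51 and 0.45 on the log2 scale. *Bcl2*, an inhibitor of cell death, moved in opposite directions. It went from 2512 and 2480 to 3492 and 3445 in Tconvs (0.47, limma adjusted p = 0.0123) and from 3839 and 3359 to 1808 and 1865 in Tregs (-0.97, limma adjusted p = 6.26e-05). The difference of -1.44 between the subsets passed (limma adjusted p = 0.000258). The other gene on the list with such a difference was *Il13ra1*, the chain that joins *Il4ra* in the IL-13 receptor. It rose in Tregs from 25 and 36 to 209 and 202 (2.59, limma adjusted p = 0.00143) and was at 13 and 21 in control and 9 and 10 in CD70Tg Tconvs (difference 3.16, limma adjusted p = 0.016). *Il13ra1* met the minimum for testing only through the CD70Tg Treg libraries, where it is high, so that a difference had to follow, and its p-values carry little weight. The values rested on 5 and 8 reads in control Tregs and 19 and 37 reads in CD70Tg Tregs. In the same Treg libraries the 3 neutrophil markers summed to 10 and 32 in controls and 232 and 203 in CD70Tg mice. Of these, only *S100a9* was tested, and it too met the minimum only through the CD70Tg Treg libraries. The 3 erythroid markers summed to 477 and 1284 in controls and 3292 and 1959 in CD70Tg mice. The 5 myeloid markers summed to 2638 and 2613 in controls and 2583 and 2411 in CD70Tg mice, with *Lyz2* at 641 and 872 in controls and 1181 and 1077 in CD70Tg mice (adjusted p = 0.0724) and a fall of *Csf1r* from 1500 and 1205 to 930 and 762 (log2 fold change -0.67, limma adjusted p = 0.0293). Granulocytes, macrophages and Ter119+ cells were among the cells depleted before the sort. The part of any that remained in the *Il13ra1* values was not tested.

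**Figure D4:**
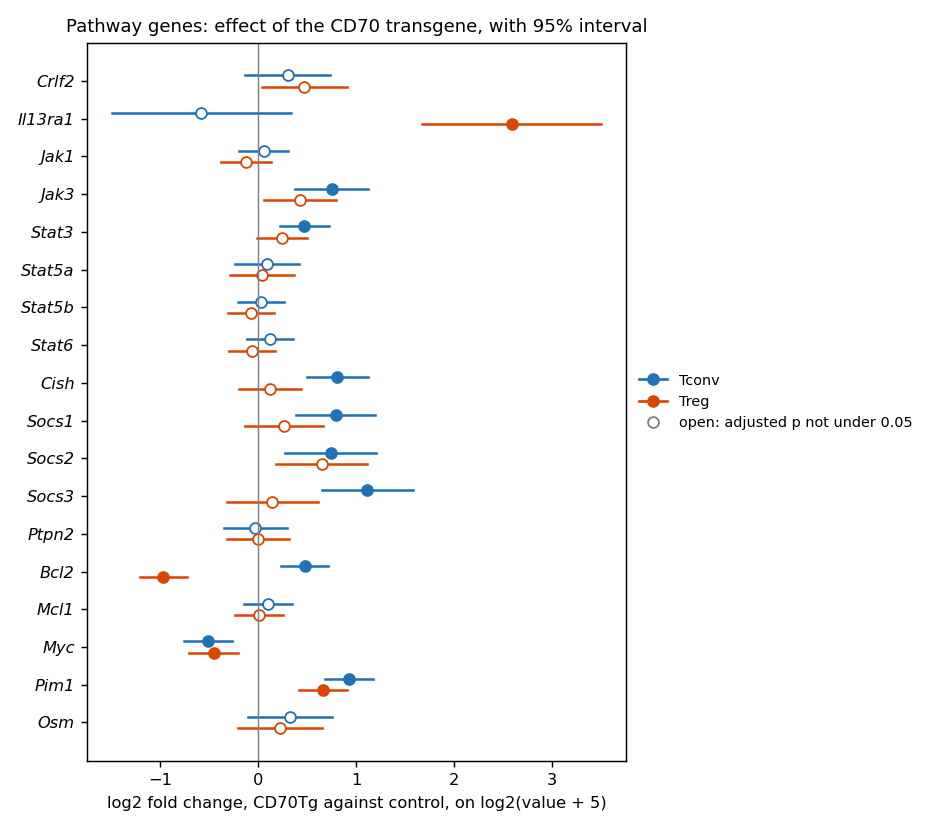
Log2 fold change of CD70Tg against control libraries on the log2(value + 5) scale (horizontal axis) for the tested pathway genes that are reported here, other than *Il21*, with 95% intervals from limma and 2 libraries per group, in Tconvs (blue) and Tregs (orange). Filled dots have an adjusted p-value under 0.05, and the dots of *Bcl2* lie at 0.47 in Tconvs and -0.97 in Tregs.

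For each receptor the 3 tested genes with the highest Pearson correlation over the 8 libraries were named, on log2(value + 5), with no test, since the libraries of a group and subset share their source. For *Il2rb* these were *Slc4a7* (0.9965), *Lamc1* (0.9946) and *Cntln* (0.9941). For *Il2ra* they were *Sh3bgrl2* (0.9977), *Atp6v0a1* (0.9972) and *Nrn1* (0.9967), and for *Il9r* *Marf1* (0.9971), *Gm38394* (0.9956) and *Gjb2* (0.9946). *Il15ra* was followed by *Nsmaf* (0.9911), *Gm17090* (0.9864) and *Myo1f* (0.9768), and *Il21r* by *Fosb* (0.9906), *Gm20033* (0.9751) and *Trim2* (0.9746). The gene most like *Il2rg* was *Gm20489* (0.9695), with which it shares exons, and *Car2* (0.89) was also among its 3. For *Il4ra* they were *Gm6807* (0.9355), *Gm44876* (0.9331), which overlaps it on the opposite strand, and *Foxo1* (0.9275). *Il7r*, with *Ms4a6b* (0.8549), *Cd52* (0.8423) and *Tspan6* (0.8291), had the lowest such values of the 8. Among the receptors themselves, *Il2ra* and *Il9r* were most alike (0.964), both high in Tregs, and *Il2rg* and *Il7r* correlated at 0.757.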

How the data were processed

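The 8 libraries fell into 4 groups of 2, Tregs and Tconvs from control and CD70Tg mice. The deposited score values were made by the authors from HTSeq 0.9.1 read numbers per gene, after Trimmomatic 0.36 and STAR 2.5.3 on mm10, by scaling to 20 M reads and rounding up. They are not counts, and depth was recovered from the unit that low values follow, which is below 1 and less certain in the deepest library. The table calls its non-transgenic columns KO, and these were read as the CD27+/- controls (WT in the labels). Columns gave the group but no replicate number, and the first and second library follow the order of the table. Rows named after genomic clones (4131) follow the unit of another library and were dropped, which left 48505.

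A gene was tested if 2 libraries reached 60. limma 3.58.1 (trend, R 4.3.3) was run on log2(value + 5), with 1 coefficient per group, and genes passed at an adjusted p-value under 0.05 with any fold change. This scale understates fold changes of low genes. Named genes were the receptors, the pathway list, cell type markers and the 3 genes most like each receptor, of which some are not reported here, although counts and medians of the lists include them. Members, lists and tests were chosen with earlier results of these data known. The fits were also run on simulated data as a check of the code, and no result here rests on that run. As alternatives, the pseudocount was set to 1 or 20, the minimum was dropped, TMM or median-of-ratios factors, limma-voom or a fold threshold were used, the compared libraries were fitted alone, and each library was left out. Floors cover counting error only. The table held 0 columns without a group.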

Additional observations from a re-analysis of the deposited data

Results flagged for a closer look

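The response of *Il2rb* to the CD70 transgene differed between the subsets, by -0.91 on the log2 scale in limma (Tregs minus Tconvs, adjusted p = 0.0157), with 1.05 in Tconvs and 0.14 in Tregs. Both CD70Tg libraries lay above both controls in each subset. Control Tregs were already at 33637 and 30872, above the 13098 and 14868 of CD70Tg Tconvs. The difference kept its sign in all 14 alternative settings and passed in 8 of them.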

How the results depend on the processing

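No paired analysis was possible because the columns of the table carry no replicate numbers. Over the alternatives, *Il2rb* in Tconvs and *Il2rb*, *Il9r* and *Il2ra* between the subsets passed every time, and *Il2rg* in Tregs in 7 of 15. The number of receptor genes passing in Tregs, 1 as reported, was 0 with a threshold of 1 on the log2 fold change, with no minimum value, with TMM factors, with median-of-ratios factors and with limma-voom, 2 with a pseudocount of 20 and 4 with the Treg libraries alone. It ranged from 0 to 3 with a library left out. In Tconvs, 3 became 1 with no minimum value. For the difference between the responses, 1 became 0 with the fold threshold, no minimum value, TMM factors or median-of-ratios factors, and ranged from 0 to 1 with a library left out. Between the subsets, 5 in control mice became 3 with the fold threshold or no minimum value, and ranged from 3 (without the second control Tconv library) to 6 (without the first CD70Tg Tconv library) with a library left out. In CD70Tg mice, 5 became 3 with the fold threshold. Where a library is left out of a group of 2, the remaining one is assumed to vary like the other groups. Without the minimum, more genes enter the adjustment and the variance trend. The causes of the other changes were not tested. With 1.92 M reads in the shallowest Treg library, the receptors of low level, *Il15ra* and *Il9r*, are the least precise.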
